A study of Mus musculus with 30 samples.

Results

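A set of 9 late neutrophil granule and S100 genes was followed through 24 RNA-seq libraries of mouse bone marrow: Ltf, Camp, Ngp, Lcn2, Mmp8, Mmp9, S100a8, S100a9 and Chil3. They were chosen by symbol, and all 9 were found among the 16070 genes of the deposited table. The study asked how loss of the Tet2 protein compares with loss of its catalytic function alone in ageing marrow. The libraries came from mice of a Mixed 129/C57BL/6 strain that were Tet2 wild type (WT), catalytic-deficient (Mut) or knockout (KO), at 3, 6, 9 and 12 months of age. No treatment or other allele is named in the labels. At each age and genotype, marrow of 3 mice was pooled and sorted into a fraction labelled LSK (lineage-negative, Sca1-positive, Kit-positive) and a fraction labelled lineage-negative (Lin-negative), and 1 library was made from each. So there were 4 libraries per fraction and genotype, 1 at each age, and 3 per fraction and age, 1 of each genotype. The 12-month LSK library used as Mut is Mut by its title, genotype label and table column. Its description code, however, ends with the letter that marks KO elsewhere. Counts of the 9 genes called are therefore also given without it where they differ. Other values keep it as Mut unless stated. Depth ran from 31455530 to 47713130 reads assigned to genes per library.

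Neutrophils fill their granules in a fixed order as they mature. Primary granules, with Mpo, Elane, Prtn3 and Ctsg, are made at the promyelocyte stage. Secondary granules follow in myelocytes and metamyelocytes, under the transcription factor Cebpe, and tertiary granules follow in band cells. Ltf (lactoferrin, which binds iron), Camp (the cathelicidin antimicrobial peptide), Ngp (a cystatin-like neutrophilic granule protein) and Lcn2 (lipocalin 2, which binds bacterial siderophores) belong to secondary granules. Mmp8 is the neutrophil collagenase, and Mmp9 is the gelatinase of tertiary granules. S100a8 and S100a9 form calprotectin, a calcium- and metal-binding dimer of the neutrophil cytosol. Chil3 (Ym1) is a chitinase-like secreted protein that neutrophil precursors and some macrophages make. It has a close paralogue, Chil4, and how reads shared by both were counted is not given in the sources used here.

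The genes lie on 3 chromosomes of the mouse genome (GRCm38). On chromosome 9 are Mmp8 (chr9:7558429-7568486), Camp (chr9:109847377-109849456), Ngp (chr9:110419808-110423012) and Ltf (chr9:111019292-111042766). On chromosome 2 are Lcn2 (chr2:32384637-32387739) and Mmp9 (chr2:164940326-164955850). On chromosome 3 are S100a8 (chr3:90669071-90670034), S100a9 (chr3:90692630-90695721) and Chil3 (chr3:106147554-106167564). RefSeq promoter windows (build GRCm38.p6) were matched for 8 of the 9, all but Mmp9. The 150 bases that end just before the start site are printed below for Ltf and Ngp, which were called lower at 9 months, for Camp and S100a8, which were not, and for Mmp8, which differed most with age in Lin-negative. Each reads 5′ to 3′ on the gene's strand, and capitals mark matches to TTGCNNAA, a pair of C/EBP half-sites, on either strand (TTNNGCAA on the other), or to TATAAA.
Ltf (chr9:111019142-111019291, plus strand): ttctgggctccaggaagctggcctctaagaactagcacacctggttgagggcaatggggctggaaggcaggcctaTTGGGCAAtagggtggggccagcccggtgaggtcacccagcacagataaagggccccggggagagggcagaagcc
Ngp (chr9:110419658-110419807, plus strand): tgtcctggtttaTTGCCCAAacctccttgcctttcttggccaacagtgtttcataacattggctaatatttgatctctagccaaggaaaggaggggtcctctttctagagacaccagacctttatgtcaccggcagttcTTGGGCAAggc
Mmp8 (chr9:7558279-7558428, plus strand): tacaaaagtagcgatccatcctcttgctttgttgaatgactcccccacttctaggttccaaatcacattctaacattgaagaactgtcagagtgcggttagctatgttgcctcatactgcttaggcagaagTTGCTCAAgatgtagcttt
Camp (chr9:109849457-109849606, minus strand): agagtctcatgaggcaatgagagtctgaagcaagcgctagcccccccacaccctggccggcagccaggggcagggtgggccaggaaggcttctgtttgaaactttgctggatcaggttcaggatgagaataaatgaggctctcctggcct
S100a8 (chr3:90668921-90669070, plus strand): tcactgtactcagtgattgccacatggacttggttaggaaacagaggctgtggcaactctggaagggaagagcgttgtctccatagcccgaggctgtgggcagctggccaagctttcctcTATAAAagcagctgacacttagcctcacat
The capitals begin 75 bases before the start site in Ltf, 138 and 11 in Ngp, 19 in Mmp8, and 30 in S100a8, where they mark TATAAA. Lcn2, also called lower at 9 months but not printed, had no such match in its 150 bases. Its TTGCNNAA match begins 216 bases before the start site. Mmp8 has a match and was not called at 9 months. The printed windows are therefore no comparison of called with uncalled genes. Over the full 250 bases before the start site, TTGCNNAA on either strand was found in 5 of the 8 windows (Ltf, Ngp, Lcn2, Mmp8 and S100a9) and in 9.56% of all 32851 RefSeq windows. GAGGAA, the core bound by PU.1, was found on either strand in 4 of 8 (Ltf, Lcn2, Mmp8 and S100a8) and in 23.3% of all windows. TATAAA, on either strand, was found in 1 of 8, S100a8, and in 12.4% of all windows. These matches describe letters in a window and are not binding sites.

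The fraction labels were checked before the results, because late granule genes are not a feature of LSK cells. The libraries labelled LSK were not set apart from the Lin-negative libraries by the genes that define the sort. Kit, the stem cell factor receptor, had a median of 4762 normalized counts in the 12 LSK libraries and 4101 in the 12 Lin-negative libraries, and was higher in LSK in 10 of 12 pairs of the same genotype and age. Ly6a, which encodes Sca1, had a median of 513 in LSK and 687 in Lin-negative, and was higher in LSK in only 3 of 12 pairs. Ly6g, a surface protein of neutrophils that a lineage depletion commonly targets, had medians of 5999 and 6777. The lowest LSK library still held 2841 normalized counts of Ly6g. The words LSK and Lin-negative below therefore name labels and not a cell content that these markers bear out.

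Between the fractions (Lin-negative against LSK, paired by genotype and age over 24 libraries), limma called none of the 9 genes and 0% of 16061 genes. At an unadjusted p under 0.05 it named 4 of the 9 and 3581 of all genes. On reads recovered from the normalized values, edgeR also called 0 of the 9, and DESeq2 called 1 of the 9 and 4.18% of all genes. All 9 differences were above 0, with a median of 0.11 on the log2 scale against a median of -0.002 for all genes. The largest was that of S100a8, 0.20 ± 0.07 (log2, SE, adjusted p = 0.153), and the smallest that of Chil3, 0.03 ± 0.04. S100a9 stood at 0.18, Camp at 0.17, Lcn2 at 0.12, Ngp and Mmp8 at 0.11, Mmp9 at 0.06 and Ltf at 0.04. The pairs fell into 2 ranges: in 7 of 12 pairs, the median gene differed by 0.109 to 0.124 (absolute log2), and in the other 5 by 0.191 to 0.333. Those 5 were the 3-month pairs of all 3 genotypes, the Mut pair at 12 months and the KO pair at 6 months. Every pair differed by more than sampling noise (4.8 to 88 chi-square units per gene, where counting alone gives about 1), so no library was counted as a copy of another. Because most pairs were this alike, the fractions are given side by side and not as independent repeats.

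The 9 genes took between 3.56% and 8.98% of a library's reads. In LSK, WT libraries gave 7.27%, 5.80%, 4.77% and 3.60% at 3, 6, 9 and 12 months, Mut libraries 5.84%, 5.86%, 5.94% and 4.01%, and KO libraries 5.78%, 7.63%, 5.50% and 4.58%. In Lin-negative, the same ages gave 7.12%, 5.68%, 4.72% and 3.56% in WT, 6.81%, 5.52%, 6.29% and 4.76% in Mut, and 7.43%, 8.98%, 5.90% and 4.73% in KO. The 12-month library was the lowest of its genotype in all 6 series. The WT series was lower at each later age in both fractions, while the highest KO share was at 6 months. With the 3 genotypes as repeats, the LSK share was 6.30% ± 0.84 (SD, n = 3) at 3 months and 4.07% ± 0.49 at 12 months, and the Lin-negative share was 7.12% ± 0.31 and 4.35% ± 0.69. With the 4 ages as repeats, the genotypes overlapped. In LSK, WT gave 5.36% ± 1.56 (SD, n = 4), Mut 5.41% ± 0.93 and KO 5.87% ± 1.28, and in Lin-negative WT gave 5.27% ± 1.51, Mut 5.85% ± 0.89 and KO 6.76% ± 1.85. Counting error is small at this depth: the exact 95% Clopper-Pearson interval of the 3-month WT share in LSK was 7.26% to 7.28%, and it covers counting error only.

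**Figure D1:**
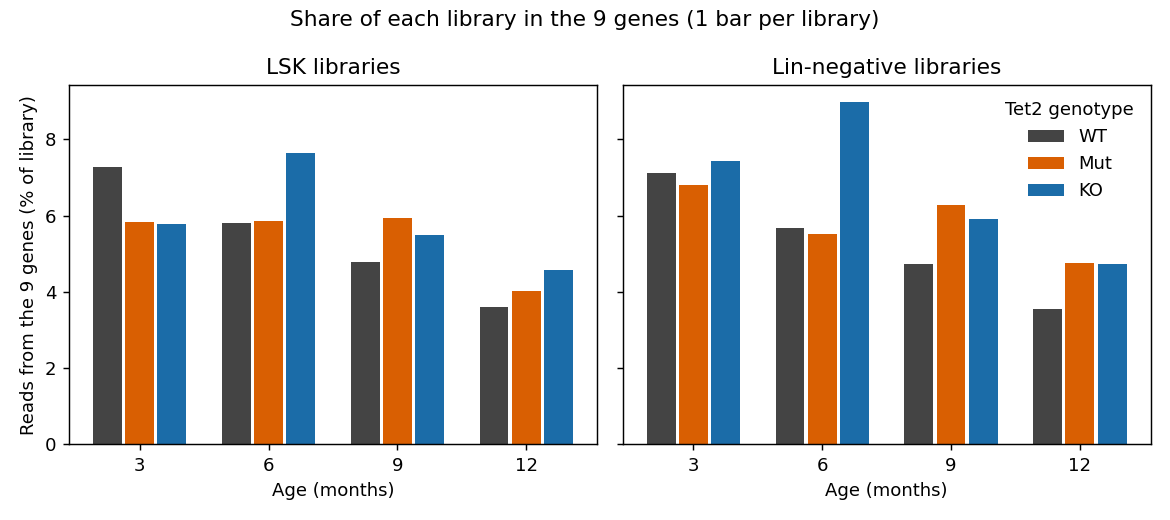
Percent of each library's gene-assigned reads that came from the 9 genes (vertical axis), by age in months (horizontal axis), fraction (panel) and Tet2 genotype (colour), with 1 bar per library and no error bar. The 12-month bars are the lowest of each genotype, and the tallest bar is the KO Lin-negative library at 6 months, at 8.98%.

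Age gave the clearest difference. From 3 to 12 months, 7 of the 9 genes fell in LSK and 4 of the 9 fell in Lin-negative (limma on log2(value + 1), adjusted p under 0.05 over all genes tested), and none rose. Over all genes, 11.6% were called lower in LSK and 6.94% in Lin-negative. The median of the 9 was -0.65 in LSK and -0.73 in Lin-negative (log2), against 0.03 for all genes in either fraction. Each of the 9 had every 12-month library below every 3-month library in both fractions, an order that 17.9% of all genes showed in LSK and 17.3% in Lin-negative. Only 1 library stood for each genotype at each age, so the 3 genotypes served as repeats of an age, and age cannot be told apart from the pool of mice, sort or day that came with it. In bulk libraries such as these, fewer cells of a type and less RNA per cell cannot be told apart.

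The proteases Mmp8 and Mmp9 differed most. Mmp8 stood at 42108, 42731 and 41051 normalized counts in WT, Mut and KO of LSK at 3 months and at 16226, 23052 and 25332 at 12 months. In Lin-negative it went from 63093, 58434 and 51858 to 15909, 20613 and 24817. The 3-month libraries lay within a narrow band in LSK and the WT library was the lowest at 12 months in both fractions. Mmp8 fell by 0.99 ± 0.17 (log2, SE, adjusted p = 0.00299) in LSK and by 1.52 ± 0.22 (adjusted p = 0.00356) in Lin-negative. Mmp9 fell by 1.09 ± 0.20 (adjusted p = 0.00377) in LSK, where the 3-month libraries held 93566, 88516 and 83246 and the 12-month libraries 33011, 44248 and 48597. In Lin-negative it fell by 1.40 ± 0.24 (adjusted p = 0.00679), from 122058, 110483 and 93238 to 32235, 43246 and 49205. Both genes kept an adjusted p under 0.05 on leaving out each of the 12 libraries of the fraction in turn. In Lin-negative without all WT libraries, neither was called, beside 0.463% of all genes.

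The secondary granule genes were lower by less. Ltf had 413881, 341805 and 354015 normalized counts in WT, Mut and KO of LSK at 3 months and 196264, 242240.1 and 286949.9 at 12 months, and fell by 0.63 ± 0.19 (log2, SE, adjusted p = 0.0317). The 12-month WT library was the lowest of the 6. In Lin-negative the Ltf values were 424466, 400219.5 and 409775 at 3 months and 192059.9, 273888 and 287609.9 at 12 months, a difference of -0.73 ± 0.21 that did not pass (adjusted p = 0.0508). Ngp fell by 0.62 ± 0.18 in LSK (adjusted p = 0.0273), from 561778, 436516 and 432047 to 290399.8, 297879.8 and 336046, and its difference in Lin-negative was -0.72 ± 0.22 (adjusted p = 0.063). Lcn2 fell by 0.68 ± 0.19 in LSK (adjusted p = 0.0232), from 195194, 157741 and 161773 to 86804, 105979 and 133031, and stood at -0.71 ± 0.21 in Lin-negative (adjusted p = 0.0559). Ltf, Ngp and Lcn2 thus had like sizes in both fractions and were on either side of the threshold. Camp passed in neither, with -0.54 ± 0.18 in LSK (adjusted p = 0.0537) and -0.53 ± 0.26 in Lin-negative (adjusted p = 0.225). Its LSK libraries held 196270.1, 122803 and 110646 at 3 months and 101767, 95799 and 88729 at 12 months, with the WT library well above the other 3-month libraries.

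Of the calprotectin pair, S100a9 fell in both fractions, by 0.79 ± 0.23 in LSK (log2, SE, adjusted p = 0.0284) and by 1.05 ± 0.29 in Lin-negative (adjusted p = 0.0424). Its LSK libraries went from 717354, 527177 and 514513 normalized counts in WT, Mut and KO at 3 months to 283271, 337518 and 395865 at 12 months. In Lin-negative they went from 738395, 719004 and 844361 to 275080.3, 439528 and 418457. WT was thus the lowest 12-month library of S100a9 in both fractions. S100a8 was at 463696, 322989 and 321585 at 3 months in LSK and at 202655, 230556 and 291276 at 12 months, a difference of -0.61 ± 0.22 (adjusted p = 0.0714). In Lin-negative it was -0.90 ± 0.26 (adjusted p = 0.0547), with 471763, 452743 and 521738 at 3 months against 199882, 289467 and 298145 at 12 months. Chil3 fell by 0.65 ± 0.14 in LSK (adjusted p = 0.00715) and by 0.61 ± 0.15 in Lin-negative (adjusted p = 0.0283). The LSK libraries of Chil3 held 171156, 152980.4 and 177752 at 3 months and 89555, 105369 and 128496 at 12 months, in the order WT, Mut, KO. Its Lin-negative libraries held 155171, 170935 and 192240.4 at 3 months and 90377, 120513 and 131903 at 12 months, again with WT lowest.

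**Figure D2:**
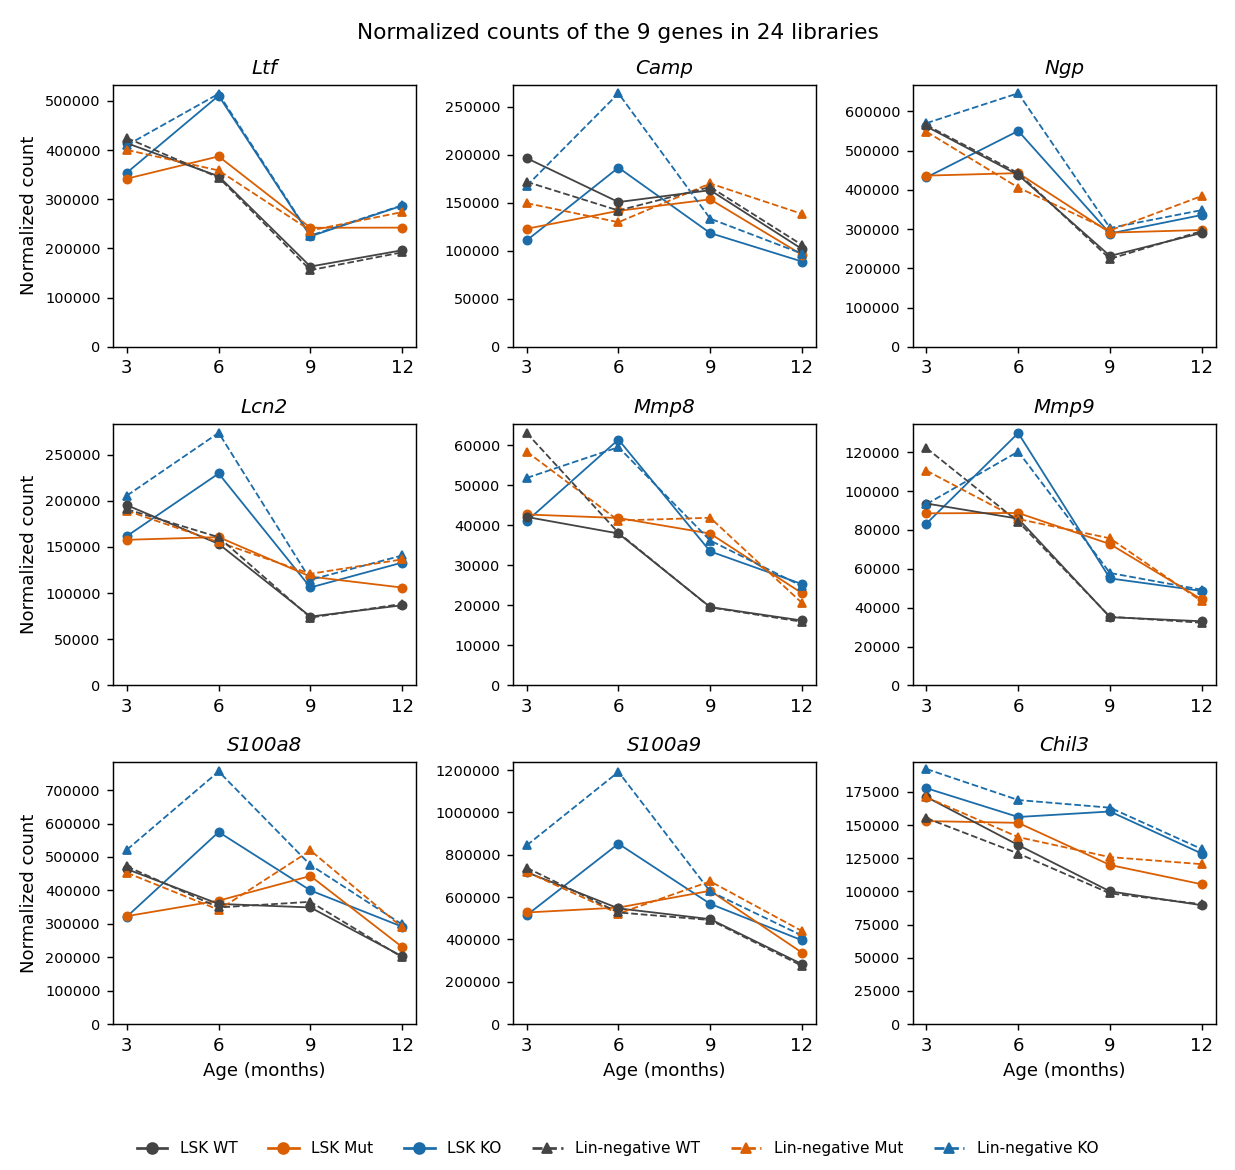
Normalized counts (vertical axis, from 0, own scale in each panel) against age in months (horizontal axis) for each of the 9 genes; circles with solid lines are LSK and triangles with dashed lines Lin-negative, coloured by Tet2 genotype, with 1 library per point. Within each fraction the 12-month points lie below the 3-month points in every panel, and the KO Lin-negative library at 6 months is the highest point of Ltf, Camp, Ngp, Lcn2, S100a8 and S100a9.

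How many of the 9 passed from 3 to 12 months depended on single libraries. In LSK, where 7 passed, the count was 2 without the WT library at 12 months and 3 without the WT library at 3 months, the Mut library at 12 months or the KO library at 12 months. Of all genes, 22.9% were called in either direction in the main fit. The share was 10.6%, 17.5%, 13.6% and 10.2% in these fits, in that order. In Lin-negative, where 4 passed, the count was 2 without the WT library at 3, 6 or 12 months, the Mut library at 3 or 12 months or the KO library at 12 months, but 7 without the Mut library at 6 months and 8 without the KO library at 6 months. Of all genes there, 9.92% were called in the main fit. The share was 1.87% to 6.98% in the fits with a count of 2, and 9.68% and 14.2% in those with 7 and 8. With edgeR and with DESeq2 on recovered reads, all 9 passed in LSK and 8 in Lin-negative. EdgeR called 23.7% and 9.66% of all genes in LSK and Lin-negative, and DESeq2 25.8% and 15.2%.

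The decline from 3 to 12 months was compared between the fractions by an interaction term over 24 libraries. Mmp8 fell by 0.53 ± 0.09 more in Lin-negative (log2, SE, limma adjusted p = 0.0267), the only one of the 9 to pass, beside 0.585% of all genes. Its 3-month libraries were 42108, 42731 and 41051 in LSK against 63093, 58434 and 51858 in Lin-negative, without overlap, whereas at 12 months the ranges overlapped. For Mmp9 the difference of the declines was -0.31 ± 0.09 (adjusted p = 0.235). The Mmp8 call was kept in 8 of the 24 fits that left out 1 library and lost without any of the WT libraries at 3, 6 or 12 months, the Mut libraries at 3, 9 or 12 months or the KO libraries at 9 or 12 months, of either fraction (adjusted p of 0.0235 to 0.184 over the 24).

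**Figure D3:**
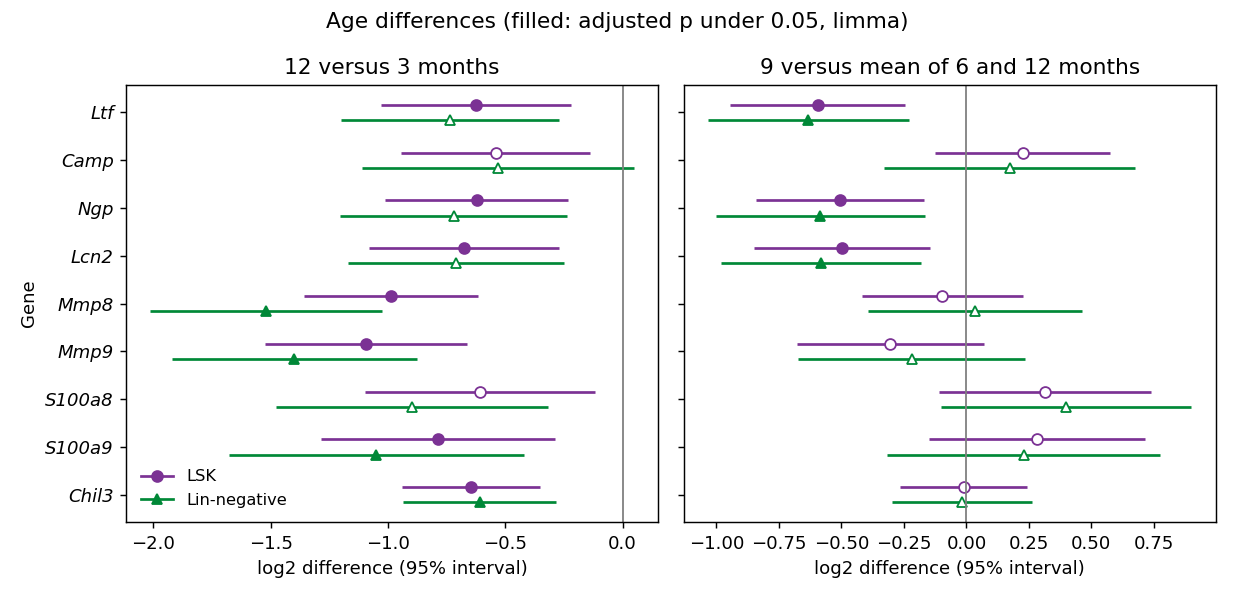
Fitted log2 difference (horizontal axis) with its 95% interval for each gene (vertical axis), 12 against 3 months (left) and 9 months against the mean of 6 and 12 months (right); circles are LSK, triangles Lin-negative, and filled symbols have a limma adjusted p under 0.05. All points on the left are below 0, led by Mmp8 and Mmp9, and on the right the filled symbols are Ltf, Ngp and Lcn2.

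The 9-month libraries were set against those on either side. Against the mean of 6 and 12 months, Ltf, Ngp and Lcn2 were lower in both fractions and the other 6 did not pass. In LSK, Ltf fell by 0.60 ± 0.16 (log2, SE, limma adjusted p = 0.0112), Ngp by 0.51 ± 0.15 (adjusted p = 0.0203) and Lcn2 by 0.50 ± 0.16 (adjusted p = 0.0264). In Lin-negative, Ltf fell by 0.63 ± 0.18 (adjusted p = 0.0225), Ngp by 0.58 ± 0.19 (adjusted p = 0.037) and Lcn2 by 0.58 ± 0.18 (adjusted p = 0.0308). Such lower calls were common at this age, at 22.8% of all genes in LSK and 17.4% in Lin-negative, so 3 of 9 is close to the background and is no result about the 9 as a group. Whether the called genes differ from the uncalled ones was not tested. S100a8 stood at 0.31 ± 0.19 in LSK and 0.40 ± 0.23 in Lin-negative (adjusted p = 0.211 and 0.199), S100a9 at 0.28 and 0.23, and Camp at 0.22 ± 0.16 and 0.17 ± 0.23 (adjusted p = 0.275 and 0.589). Mmp8, Mmp9 and Chil3 stood at -0.10, -0.31 and -0.01 in LSK and at 0.03, -0.22 and -0.02 in Lin-negative. The LSK count of 3 was 0 without the WT or the KO library at 9 months and 1 without the Mut or the KO library at 12 months. In Lin-negative it was 0 without the WT library at 6 or 9 months, the Mut library at 12 months or the KO library at 9 months, and 1 without the KO library at 12 months. Of all genes, the main fits called 43% in LSK and 32.6% in Lin-negative, in either direction. The fits named here called 30.6% to 37.9% in LSK and 18.9% to 31% in Lin-negative.

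In LSK, the WT, Mut and KO libraries of Ltf held 346715, 387074 and 510562 normalized counts at 6 months, 163165, 241961 and 224622 at 9 months, and 196264, 242240.1 and 286949.9 at 12 months. In Lin-negative they held 344126, 358456 and 514423 at 6 months, 155809.8, 236406 and 226051 at 9 months, and 192059.9, 273888 and 287609.9 at 12 months. Every 9-month library of Ltf lay below every 6-month library of its fraction, but the 9- and 12-month libraries overlapped, and in LSK the Mut library was nearly the same at both ages. Camp, by contrast, held 150573, 141439 and 186420 at 6 months and 162936, 153405 and 118306 at 9 months in LSK, and S100a8 held 359579, 369347 and 574740 at 6 months and 348989, 443152 and 399939 at 9 months. In LSK, for both genes, the 9-month KO library was below the 6-month KO library and the 9-month Mut library above the 6-month one. The WT library of LSK was above for Camp and slightly below for S100a8. In Lin-negative the directions were the same except for S100a8 in WT, which held 348975 at 6 months and 365871 at 9 months.

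Ratios within a library, chosen after the values were seen and given without a test, need no scaling between libraries. S100a8 over Ltf was 1.78 to 2.35 in the 6 libraries of 9 months and 0.908 to 1.47 in the other 18, with no overlap. Against 6 and 12 months, 43% of all genes were called at 9 months in LSK and 32.6% in Lin-negative. How many other gene ratios set this age apart was not counted. Camp over Ltf was 0.527 to 1.07 at 9 months and 0.309 to 0.552 in the other libraries, and the highest were the WT libraries, 0.999 in LSK and 1.07 in Lin-negative. Lcn2 over Ltf kept to 0.457 to 0.511 at 9 months and 0.415 to 0.532 elsewhere, and Ngp over Ltf to 1.20 to 1.44 and 1.08 to 1.54. S100a9 over S100a8 was 1.30 to 1.42 at 9 months and 1.36 to 1.63 elsewhere, and Mmp9 over Mmp8 was 1.60 to 1.92 and 1.80 to 2.26. These are ratios of counts not divided by transcript length, so they compare libraries and not the genes' levels.

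**Figure D4:**
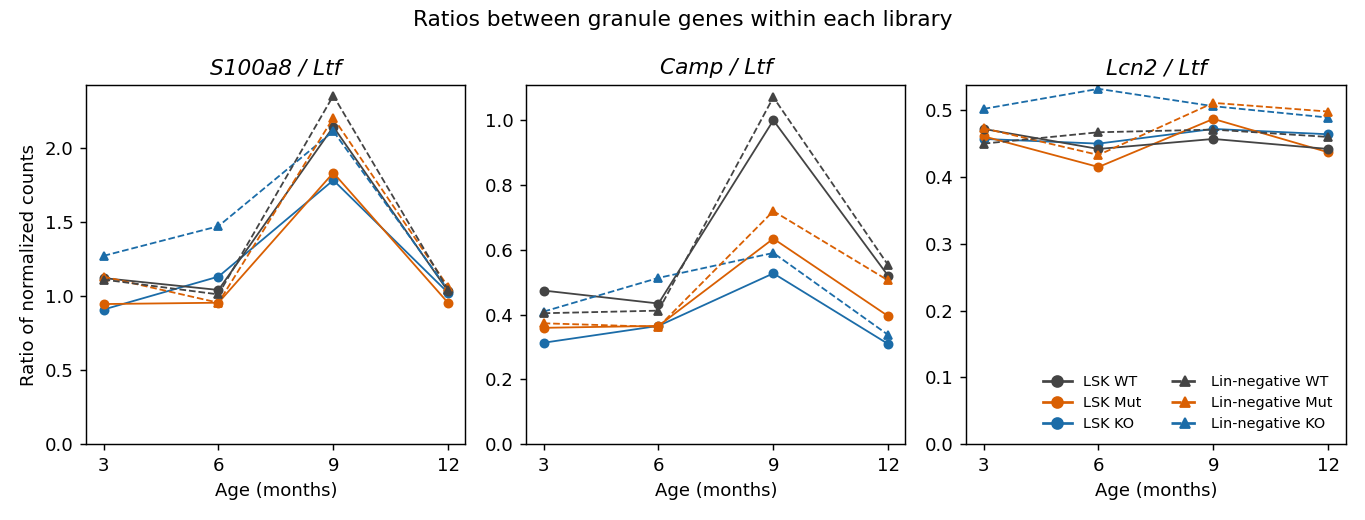
Ratio of normalized counts within each library (vertical axis, from 0) against age in months (horizontal axis) for S100a8 over Ltf, Camp over Ltf and Lcn2 over Ltf; circles with solid lines are LSK, triangles with dashed lines Lin-negative, coloured by Tet2 genotype. The 6 libraries of 9 months stand above all others for S100a8 over Ltf (1.78 to 2.35), and Lcn2 over Ltf shows no such peak.

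Genotype gave no call among the 9. Limma called 0 of the 9 in each of the 6 genotype comparisons, with the ages as repeats. Over all genes it called 13.8% for Mut against WT in LSK, 3.77% for KO against WT, 0.0312% for KO against Mut, and in Lin-negative 2.36%, 0.582% and 0.0188%. At an unadjusted p under 0.05 the counts of the 9 were 1, 4 and 0 in LSK and 0, 6 and 0 in Lin-negative, in that order, beside 30.7%, 22.1% and 6.47% of all genes in LSK and 16.9%, 17.9% and 4.64% in Lin-negative. With edgeR all 6 counts were also 0. With DESeq2 they were 1, 2 and 0 in LSK and 0, 4 and 0 in Lin-negative, beside 19.1%, 9.02% and 0.55% of all genes in LSK and 6.74%, 3.92% and 0.319% in Lin-negative. Most differences from WT were above 0: 8 of 9 for Mut and for KO in LSK (medians 0.13 and 0.34, log2), and 9 of 9 for both in Lin-negative (medians 0.27 and 0.47), against medians of all genes within 0.01 of 0. The 2 contrasts of a fraction share their WT libraries. Camp was the exception in LSK, at -0.24 ± 0.16 in Mut and -0.30 ± 0.16 in KO (SE). Between KO and Mut, the 9 differences ran from -0.06 to 0.24 in LSK, from Camp to Chil3, and from 0.01 to 0.32 in Lin-negative, from Mmp9 to S100a8. In Mut against WT of Lin-negative they ran from 0.02 for Camp to 0.37 for Mmp8.

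The KO differences nearest to the threshold were those of Mmp8 and Chil3. Mmp8 stood at 0.52 ± 0.15 in LSK (log2, SE, limma adjusted p = 0.0708), with an interval of 0.20 to 0.84, and Chil3 at 0.37 ± 0.12 (adjusted p = 0.1). In Lin-negative, Chil3 stood at 0.49 (adjusted p = 0.116), Lcn2 at 0.55 (adjusted p = 0.19), S100a9 at 0.58 and S100a8 at 0.55. Chil3 was higher in KO than in WT at all 4 ages in both fractions: the LSK differences at 3, 6, 9 and 12 months were 0.06, 0.21, 0.68 and 0.52, and the Lin-negative ones 0.31, 0.39, 0.73 and 0.55. Chil3 of Mut was also above WT at all 4 ages in Lin-negative. How many of all genes kept such an order was not counted. The Chil3 libraries of LSK at 6 and 9 months held 134898 and 100013.9 in WT, 151654 and 119899 in Mut and 156060.2 and 160210.9 in KO. Mmp8 of Mut stood at 0.41 ± 0.15 in LSK (adjusted p = 0.0849), and its largest difference was at 9 months, where WT, Mut and KO held 19579, 37957 and 33495 in LSK and 19509, 41906 and 36219 in Lin-negative. The LSK count of called genes was 5 for KO without the WT library at 3 months, 1 for KO without the Mut library at 9 months, and 2 for Mut without the WT library at 3 months. These fits called 10.8%, 5.16% and 16.2% of all genes, against 3.77% for KO and 13.8% for Mut in the main fits.

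In LSK, most of the 9 were below WT at 3 months and above it at 6, 9 and 12 months, in Mut and in KO. This was not so in Lin-negative, where KO was above WT in 5 of 9 at 3 months and Mut in 4 of 9 at 6 months. At each age, Mut and KO of a fraction were set against the same WT library, and the 9 genes vary together. How many of all genes were above WT was not counted. At 3 months, 1 of the 9 was above WT in Mut and 1 of 9 in KO of LSK (medians -0.31 and -0.27, log2, 1 library against 1, with no test). At 9 months 8 of 9 were above in each (medians 0.345 and 0.461), and at 12 months again 8 of 9 in each (medians 0.25 and 0.52). At 6 months, KO was above WT in 9 of 9 in both fractions (medians 0.58 and 0.64), and Mut in 8 of 9 in LSK and 4 of 9 in Lin-negative (medians 0.05 and -0.01). In Lin-negative at 3 months Mut was above in 1 of 9 and KO in 5 of 9 (medians -0.06 and 0.01). At 9 and 12 months there, Mut was above in 9 of 9 and KO in 8 of 9 (medians 0.42 to 0.58). The genotype differences were also compared between the fractions: limma called 0 of the 9 and 0% of all genes for Mut and for KO, as did edgeR and DESeq2, and at an unadjusted p under 0.05 the counts were 0 and 3 of the 9 and 956 and 2144 of all genes.

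Other neutrophil genes, in lists chosen with earlier results of these data known, were read beside the 9. From 3 to 12 months in LSK, 10 of 17 other secondary, tertiary and secretory vesicle genes fell and none rose (median -0.51, log2), among them Adam8, a surface metalloprotease (-1.30), Cd33 (-1.21), Ceacam10 (-1.20) and the integrin chain Itgb2 (-0.72). In Lin-negative 9 of 17 fell (median -0.77). Over all genes, 11.6% were called lower in LSK and 6.94% in Lin-negative. Of 19 mature neutrophil genes in the table, 18 fell in LSK and 16 in Lin-negative (medians -0.89 and -1.41), among them in LSK the cytokine Il1b (-2.54), the G-CSF receptor Csf3r (-1.49), the chemokine receptor Cxcr2 (-1.48) and Trem1 (-0.89). Of the primary granule genes, 4 of 12 rose in LSK and 2 of 12 in Lin-negative, none fell and the other 8 and 10 did not pass (medians 0.24 and 0.46), beside 11.3% and 2.98% of all genes called higher. Their summed share of LSK reads was 1.91% to 1.96% at 3 months and 1.92% to 1.97% at 12 months. The 4 that rose in LSK were Ctsg, Prtn3, Ms4a3 and Elane, by 0.56, 0.47, 0.46 and 0.35. Of 12 granulocyte transcription factors, 6 fell and 1 rose in LSK, and 4 fell in Lin-negative. Those of smallest adjusted p in LSK were Rara, the retinoic acid receptor alpha (-0.88), Lef1 (-1.66), Klf5 (-0.56) and Cebpd (-0.65).

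At 9 months, against 6 and 12 months, 6 of the 17 other late granule genes were lower in LSK and 3 in Lin-negative, while 1, Cd33, rose in Lin-negative. These counts stand beside 22.8% and 17.4% of all genes called lower, and 20.2% and 15.2% called higher. Of the primary granule genes in LSK, Mpo, the myeloperoxidase, fell by 0.86 ± 0.14 (log2, SE, limma adjusted p = 0.000462), and Srgn, Ms4a3 and Prss57 rose (0.29, 0.31 and 0.18). In Lin-negative Mpo alone passed, at -0.95, and Srgn and Ms4a3 stood at 0.25 and 0.22 (adjusted p = 0.116 and 0.206). In LSK, 5 of 12 transcription factors fell, with Cebpa at -0.53, Irf8 at -0.55, Spi1, which encodes PU.1, at -0.53 and Runx1 at -0.35, and in Lin-negative 3 of 12 fell.

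Markers of other cell types moved with age as well. Over all genes, 11.3% were called higher and 11.6% lower from 3 to 12 months in LSK, and 2.98% and 6.94% in Lin-negative. From 3 to 12 months, erythroid genes rose, 12 of 12 in LSK and 8 of 12 in Lin-negative (medians 0.77 and 0.78), with Alas2 at 1.68 and Hbb-bs at 1.81 in LSK. Their summed share went from 0.104% to 0.159% at 3 months to 0.178% to 0.261% at 12 months in LSK and from 0.110% to 0.165% to 0.219% to 0.278% in Lin-negative. B lymphoid genes fell, 10 of 10 in both fractions (medians -3.65 and -5.04), from 0.00781% to 0.0124% of reads at 3 months to 0.00228% to 0.00268% at 12 months in LSK and from 0.0161% to 0.0346% to 0.00232% to 0.00341% in Lin-negative. Eosinophil, basophil and mast cell genes gave 1 of 10 higher and 1 lower in LSK, and 7 of 10 higher in Lin-negative, where their share went from 0.0171% to 0.0284% to 0.0409% to 0.0850%. Monocyte and macrophage genes gave no call of 15 in LSK and 4 lower in Lin-negative, at 0.227% to 0.308% of LSK reads at 3 months and 0.215% to 0.348% at 12 months. For genotype, 13.8% and 3.77% of all genes were called in Mut and KO of LSK, in either direction. In Lin-negative these shares were 2.36% and 0.582%. Beside them, 11 of 15 monocyte and macrophage genes rose and 1 fell in Mut of LSK. In KO of LSK 6 rose and 1 fell, and 9 and 5 rose in Mut and KO of Lin-negative. Of the erythroid genes, 9 of 12 fell in Mut and 5 in KO of LSK, and 2 and 0 in Lin-negative. Of the eosinophil, basophil and mast cell genes, 7 of 10 fell in Mut and 7 in KO of LSK, and 6 and 1 in Lin-negative. Of the dendritic cell and MHC class II genes, 7 of 10 rose in Mut of LSK and 4 in Mut of Lin-negative, and none passed in KO. Of the T and NK cell genes, 4 of 10 rose and 1 fell in Mut of LSK, 2 rose in Mut of Lin-negative, and none passed in KO. Among the primary granule genes, 8 of 12 fell and 1 rose in Mut of LSK, and 1 fell and 1 rose in KO. In Lin-negative 0 of 12 fell and 1 rose, both in Mut and in KO. From 3 to 12 months in LSK, Cd34 rose by 0.48 and Kit stood at 0.32 (adjusted p = 0.0546), and in Lin-negative they stood at 0.40 and 0.39 (adjusted p = 0.163 and 0.0705). T and NK cell genes gave 2 of 10 lower in LSK, and 1 higher and 1 lower in Lin-negative. Dendritic cell and MHC class II genes gave 1 higher and 1 lower of 10 in LSK and 1 lower in Lin-negative. No gene of these lists was at 0 in any library. The part of these cell types in the differences of the 9 genes was not tested.

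The 9 genes varied together to different degrees. After centring within each fraction, Pearson's r of each with the mean of the other 8 over the 24 libraries, which share depth scaling, pools and ages, was 0.954 for Mmp9, 0.946 for Mmp8, 0.905 for Lcn2, 0.886 for S100a9, 0.877 for Ltf, 0.851 for Ngp, 0.834 for Chil3 and 0.800 for S100a8, and lowest, 0.631, for Camp. The closest pairs were Ltf with Lcn2 (0.989), S100a8 with S100a9 (0.981), Mmp8 with Mmp9 (0.981) and Ltf with Ngp (0.972). Camp was farthest from Chil3 (0.373) and had 0.427 with Ltf. These are descriptions of 24 libraries and carry no p. Of 15952 genes tested in both fractions, the 9 included, the 10 others whose log2 values followed the mean of the 9 most closely were Chil1 (0.985), Prr13 (0.983), Pilra (0.983), Arpc5 (0.982), Il16 (0.980), Mcemp1 (0.980), Fpr1 (0.978), AA467197, Dhrs7 and Glipr2 (0.977 each). Chil1 is a chitinase-like protein and Fpr1 a formyl peptide receptor of neutrophils. Since these genes were picked for following the mean of the 9, their own age differences are not given as results.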

How the data were processed

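RNA-seq was analysed in 24 libraries, and 6 bisulfite sequencing samples were not analysed here. The authors deposited 1 table of signal values, read counts per gene divided by 1 size factor per library (0.8164 to 1.231), called normalized counts here. Multiplying back gave whole reads for 100% of values (within 1e-06). Trim Galore 0.6.5, STAR 2.7.3a, featureCounts, edgeR, Bismark 0.22.3 and build mm10 are named in the submitters' processing notes. Roles, gene annotation and strand setting: not given in the sources used here.

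Groups came from the titles and labels. Genes that reached 10 in 4 or more libraries were tested on log2(value + 1), so fold changes are on that scale, with limma 3.58.1 (R 4.3.3, mean-variance trend) and Benjamini-Hochberg adjustment over all genes tested, at 0.05. Within a fraction the fit had genotype and age terms over 12 libraries (6 residual degrees of freedom). Fractions were compared over 24 libraries with a block for each genotype and age. With 1 library per fraction, genotype and age, p-values within a fraction rest on the spread left after the genotype and age terms. That spread includes any change of a genotype difference with age. Between fractions, p-values rest on the spread of the differences between paired libraries. Neither is a spread between repeated cultures or animals. The fitting code was run on simulated counts with planted differences. Those counts held no change of a genotype difference with age. They therefore cannot show whether ages or genotypes serve well as repeats.

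All 9 genes were tested in every comparison and are described singly or by their range. From each list, up to 4 genes of smallest adjusted p were named, and the 10 genes with the highest correlation. The members and lists were chosen with earlier results of these data known. Alternatives were edgeR 4.0.16 and DESeq2 1.42.0 on recovered reads, another pseudocount, filter, scaling and design, and leaving out libraries, genotypes or ages. The result of the list of LSK and stem cell genes is not reported here.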

Additional observations from a re-analysis of the deposited data

Results flagged for a closer look

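The share of reads in the 9 genes was 4.015% in the LSK Mut library at 12 months, far below the other 3 libraries of that genotype and fraction, of which the nearest held 5.843%. The gap was 0.95 of the range of the group, above Dixon's 95% critical value for 4 samples. It was the only such gap in 60 groups of 4 libraries checked (the 9 genes and their share in each fraction and genotype), where chance gives about 3. The 4 libraries differ in age, so a low value at the oldest age is not a departure among repeats. This is also the library whose description code reads as KO although it is labelled Mut. Without it, 3 of the 9 genes were called in LSK from 3 to 12 months in place of 7, beside 13.6% of all genes in place of 22.9%. For Mut against WT in LSK, 0 of the 9 were called as with it, beside 3.51% of all genes in place of 13.8%.

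The decline of Mmp8 from 3 to 12 months differed between the fractions by an interaction term (-0.53 on the log2 scale, larger in Lin-negative, limma adjusted p = 0.0267).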

How the results depend on the processing

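The counts of the 9 genes called gave the values below under other settings, and no cause of a change was tested. With DESeq2 on recovered reads the count was 1 instead of 0 for Mut against WT in LSK, 2 instead of 0 for KO against WT in LSK, 4 instead of 0 for KO against WT in Lin-negative, 8 instead of 4 for 12 against 3 months in Lin-negative, and 1 instead of 0 between the fractions. Of all genes, DESeq2 called 19.1%, 9.02%, 3.92%, 15.2% and 4.18% in that order, against 13.8%, 3.77%, 0.582%, 9.92% and 0% in the main fits. With edgeR, with all 24 libraries in 1 fit, and with the mean of both fractions (chosen after seeing the data), 8 were called for 12 against 3 months in Lin-negative, and the fit of all 24 called 1 for KO against WT in Lin-negative. The shares of all genes were 9.66%, 18.8% and 22.2% for the age count and 2.75% for the KO count. Without the 3-month libraries, Mut and KO against WT in LSK gave 1 and 3, beside 15.4% and 6.8% of all genes. For 12 against 3 months in LSK, 7 became 3 with no genotype term (9.68% of all genes). It became 3, 2 and 2 without the WT, Mut and KO libraries (14%, 12% and 3.91% of all genes). In Lin-negative, 4 became 2 with no genotype term (5.2% of all genes). It became 0, 2 and 2 without the WT, Mut and KO libraries (0.463%, 3.49% and 9.64% of all genes). Fits without the libraries of a genotype hold fewer samples. For 9 against 6 and 12 months, 3 became 0 without the KO libraries in LSK, and 0, 1 and 0 without the WT, Mut and KO libraries in Lin-negative. The shares of all genes were 28.1% in that LSK fit and 12.8%, 16.4% and 25.6% in those Lin-negative fits. The Mmp8 difference between the fractions was lost (0 called) without the mean-variance trend and without the 9-month libraries. Those fits called 0.156% and 0.175% of all genes. Leaving out 1 library at a time gave 0 to 2 for Mut and 0 to 5 for KO against WT in LSK, 2 to 8 for 12 against 3 months in either fraction, 0 to 4 in LSK and 0 to 3 in Lin-negative for 9 against 6 and 12 months, and 0 to 1 for the Mmp8 difference. The share of all genes called varied too. It ran from 2.96% to 17.3% for Mut and from 0.319% to 10.8% for KO in LSK. For 12 against 3 months it ran from 10.2% to 24.7% in LSK and from 1.87% to 14.2% in Lin-negative.

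Of 897 single-gene values under other settings, 801 kept direction and side of the threshold, 52 lost the call, 36 gained it and 8 changed sign. Of 972 with 1 library left out these were 859, 79, 21 and 13. Every change of sign was in a difference that was not called. For 9 against 6 and 12 months in LSK, Mmp8 stood at 0.03 and Chil3 at 0.05 without the WT libraries and Chil3 at 0.02 without the Mut libraries, and with 1 library left out Mmp8 ran from -0.28 to 0.08 and Chil3 from -0.12 to 0.09. In Lin-negative, Chil3 stood at 0.04 without the WT libraries, Mmp8 at -0.21 without the Mut libraries and at -0.03 for the mean of both fractions, and with 1 library left out Mmp8 ran from -0.20 to 0.29, Mmp9 from -0.47 to 0.02 and Chil3 from -0.10 to 0.06. Camp in KO against WT of Lin-negative stood at -0.16 without the 6-month libraries, at -0.10 for the mean of both fractions, and between -0.19 and 0.25 with 1 library left out. The labels give no replicate numbers that would pair libraries across genotypes or ages. The fractions were paired by genotype and age, and without that block the fit also called 0 of the 9 between them. Depth was not varied.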
